A study of Mus musculus with 3 samples.

Results

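The proteasome is the barrel-shaped protease that degrades ubiquitin-tagged proteins in the cytosol and nucleus. The genes described here are those whose symbol consists of Psm, a letter from a to g and a number, whatever follows it. The pattern was met by 48 of the 17857 genes in the deposited count table. They comprise 7 alpha and 10 beta subunits of the core particle, 17 subunits and 3 chaperones of the regulatory particle, 5 other regulators and 4 chaperones of core assembly. The remaining 2 matches, Psma8 and Psmc3ip, are described apart.

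The 3 libraries are bulk RNA-seq of 1 sorted population from C57BL/6J mice, as the labels name the strain. B16F10 melanoma, a line that grows in this strain, was implanted in both thighs and left untreated, and the draining lymph nodes were pooled and sorted at day 14 for cells that were CD11c negative, Ly6c+ and c-kit+. There is 1 group, from 3 repeat experiments called replicates 1 to 3, and no control population. The sources used here give neither the age nor the number of the mice.

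In the core particle, rings of alpha subunits cap rings of beta subunits, and 3 of the beta subunits carry the active sites. Lymphoid cells, and other cells exposed to interferon-gamma, can build the particle with inducible catalytic subunits in place of the constitutive ones, which gives the immunoproteasome. Its cleavage pattern favours peptides that fit MHC class I, and the PA28 ring made by Psme1 and Psme2 is induced along with it.

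The libraries held 9077195, 13885509 and 13861430 counts in replicates 1, 2 and 3, and the 48 genes took 0.307% (95% Wilson interval 0.304 to 0.311), 0.261% (0.258 to 0.264) and 0.279% (0.276 to 0.282) of them. Such intervals cover counting error only. Levels are normalised read counts (CPM) divided by gene length in kilobases, because only levels per length can be set between genes. Kit, the gene of the sorted c-kit receptor, had 9.78, 5.35 and 5.96 CPM, and per kilobase it lay below the median gene (log2 difference -1.97, edgeR adjusted p = 0.00146). The Ly6C genes are near-identical and their split is uncertain: Ly6c2 had 11.5, 121 and 41.5 CPM, and Ly6c1 had 19.0, 4.28 and 17.7 CPM. Itgax, the CD11c gene against which the cells were sorted, had 26.8, 43.2 and 24.1 CPM. The libraries differed in cell markers. Erythroid markers summed to 4111, 63.8 and 303 CPM (6 genes), macrophage markers to 918, 94.0 and 215 CPM (6 genes), and CD8 T and NK markers to 110, 1578 and 512 CPM (8 genes), and none of these 20 genes was at 0 in all 3 libraries. T cell markers summed to 2946, 3710 and 3714 CPM (8 genes). In such bulk samples fewer cells of a type and less RNA per cell cannot be told apart.

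Most proteasome genes stood above the typical gene in these cells. Of the 48 genes, 47 lay above 1 CPM and 1, Psma8, was not separated from it (edgeR's quasi-likelihood test, Benjamini-Hochberg adjusted p under 0.05 over 15490 genes), where 68.7% of all genes tested lay above. Set per kilobase against the median gene of each library, which had 5.33, 5.37 and 5.24 CPM per kilobase in replicates 1, 2 and 3, 42 of the 48 were above by the same test, against 43.7% of all genes tested, while 19.1% of these lay below. The number below, 2964 genes, was 4683 without replicate 1 and 917 without replicate 3. The other 6 were not separated from the median gene. They were the constitutive catalytic subunit Psmb5, the alpha subunit Psma5, the chaperones Psmg3 and Psmd9, and Psma8 and Psmc3ip. With the stricter filter of edgeR's filterByExpr, which raises the median gene, 37 were above it, and the calls for Psma3, Psmb3, Psmg1, Psmd10 and Psmf1 were lost, while Psmd9 was below it (log2 difference -1.06, adjusted p = 0.0200). Without Psma8 and Psmc3ip, the median of the 46 proteasome genes was 32.7 CPM per kilobase, against 5.50 over all genes tested. The p-values reflect how far these 3 libraries spread, estimated in part over all genes, and part of that spread can be technical.

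**Figure D1:**
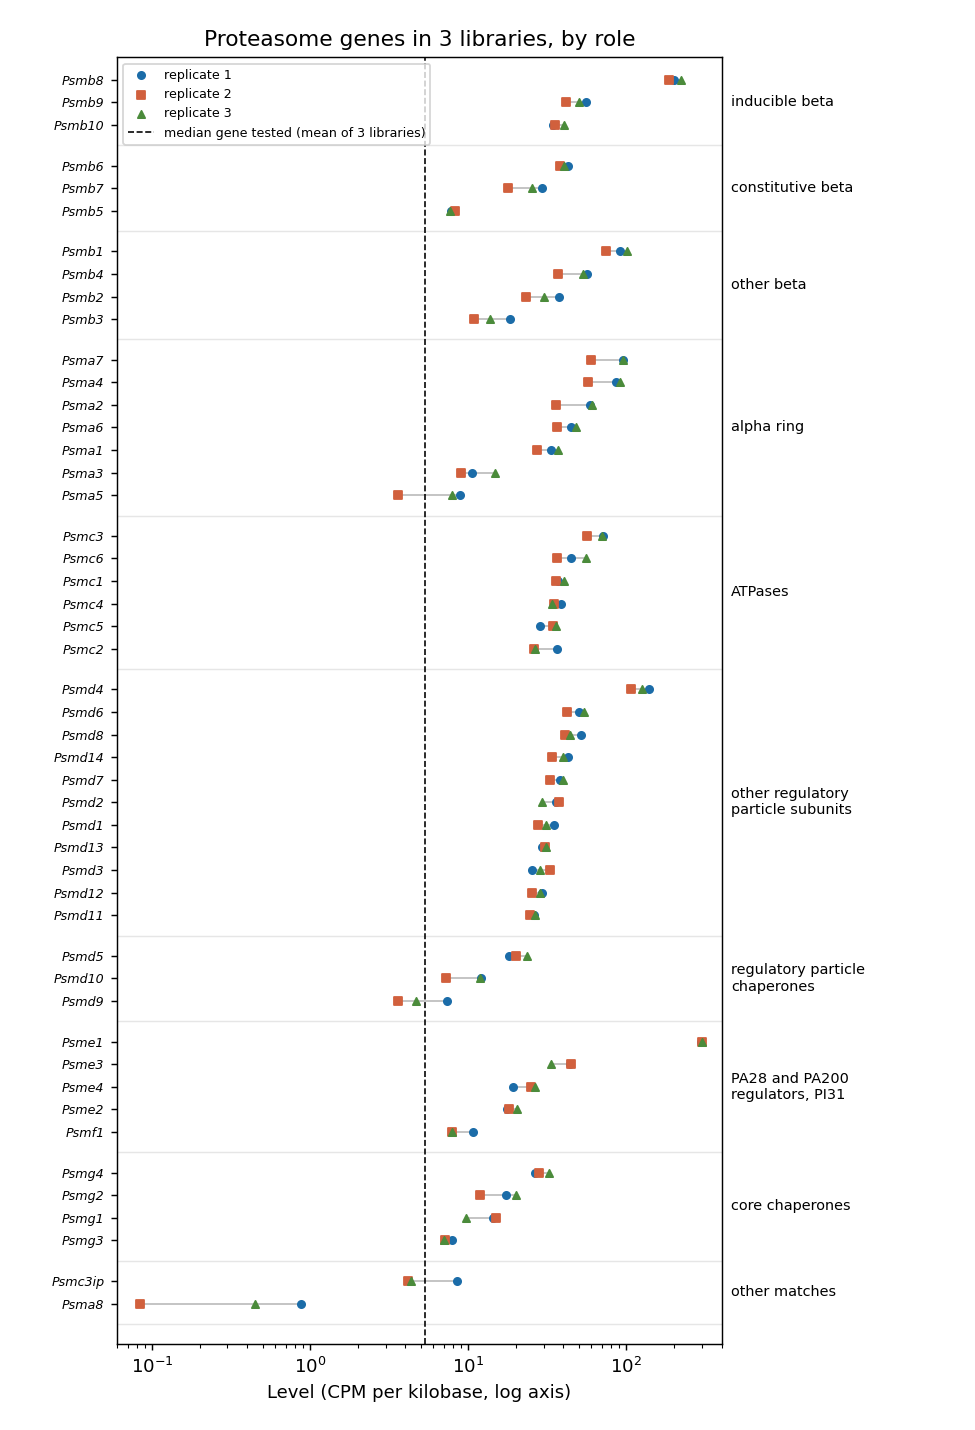
Level of each of the 48 genes in CPM per kilobase (log axis) in the 3 libraries, 1 symbol per library, grouped by role; grey lines join the libraries and the dashed line is the median gene tested. Psme1 at 300.1 and Psmb8 at 203 stand highest, and Psma8 at 0.468 lies far to the left of all others.

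Of the 5 pairs of genes compared, Psmb8 and Psmb5 differed most. Psmb8, the inducible subunit with chymotrypsin-like activity also called LMP7, is on chromosome 17 at 34198195 to 34201454 (GRCm38.p6, the assembly behind mm10). It had 200.6, 186.7 and 222 CPM per kilobase in replicates 1, 2 and 3 (203 ± 17.8, SD, n = 3). Its constitutive counterpart Psmb5, on chromosome 14 at 54614120 to 54617995, had 7.72, 8.19 and 7.71 CPM per kilobase (7.88 ± 0.272). The groups of values were far apart in every library. Psmb8 was 25.97-fold, 22.8-fold and 28.8-fold higher than Psmb5 in replicates 1, 2 and 3, a fitted difference of 4.69 on the log2 scale (95% interval 4.51 to 4.88; edgeR adjusted p = 5.45e-10), where 36.2% of all genes lay above Psmb5 and 28.6% below it. Only 64, 100 and 88 reads stood behind Psmb5, against 2334, 3201 and 3557 behind Psmb8.

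Psmb9, also called LMP2, replaces Psmb6, the subunit with caspase-like activity. It lies next to Psmb8 on chromosome 17, at 34182030 to 34187330, and had 55.6, 41.7 and 50.1 CPM per kilobase (49.1 ± 6.99). Psmb6, on chromosome 11 at 70525324 to 70527858, had 42.9, 37.9 and 40.4 CPM per kilobase (40.4 ± 2.49). Psmb9 was the higher of the pair in 3 of 3 libraries, by 1.29-fold, 1.10-fold and 1.24-fold, but its replicate 2 value fell within the range of Psmb6. The fitted difference of 0.28 on the log2 scale had an interval of -0.12 to 0.67 (edgeR adjusted p = 0.164), so levels from 0.920-fold to 1.59-fold were compatible with it. Of all genes, 6.08% lay above Psmb6 and 84% below it.

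Psmb10, also called MECL-1, replaces Psmb7, the subunit with trypsin-like activity. Psmb10, on chromosome 8 at 105935728 to 105938392, had 34.2, 35.3 and 40.2 CPM per kilobase (36.5 ± 3.18). Psmb7, on chromosome 2 at 38588046 to 38643952, had 29.3, 17.96 and 25.3 CPM per kilobase (24.2 ± 5.74). All 3 values of Psmb10 lay above all 3 of Psmb7, and the ratio varied most of the 3 pairs, at 1.17-fold, 1.96-fold and 1.59-fold in replicates 1, 2 and 3. The fitted difference was 0.65 on the log2 scale (-0.0027 to 1.31) and missed the threshold in edgeR (adjusted p = 0.0647), while 10.3% of all genes lay above Psmb7 and 67.1% below it. DESeq2 (adjusted p = 0.0490) and limma (0.0228) called it, as did edgeR without replicate 1 (0.83, adjusted p = 0.0405), and over 10 alternatives the adjusted p ran up to 0.451. The ratio was highest in replicate 2, where Psmb7 was lowest, whereas Psmb10 was highest in replicate 3. Summed CD8 T and NK markers had the same order over the libraries as this ratio. Erythroid, macrophage and B cell markers and mitochondrial ribosomal RNA, given below, had the reverse order. Over all genes the median log2 ratio of replicate 2 to the others was -0.30 under 1 kb, the class of Psmb7. It was -0.01 from 1 to 2 kb, the class of Psmb10. The part of these differences in the ratio was not tested. For each pair alone, the exact two-sided permutation test over 3 libraries gave its smallest possible p, 0.25.

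As shares of the pair per kilobase, the inducible gene made up 96.2% ± 0.425 for Psmb8, 54.7% ± 2.11 for Psmb9 and 60.5% ± 6.25 for Psmb10 (SD, n = 3). The share of Psmb10 was 53.9%, 66.3% and 61.4% in replicates 1, 2 and 3, with Wilson intervals of 50.03 to 57.6, 62.9 to 69.5 and 58.2 to 64.5, so replicate 1 lay below the others by more than counting error. Summed over the catalytic genes, the inducible ones held 78.4%, 80.5% and 81.0%. Messenger shares were measured here, not the subunits built into particles.

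**Figure D2:**
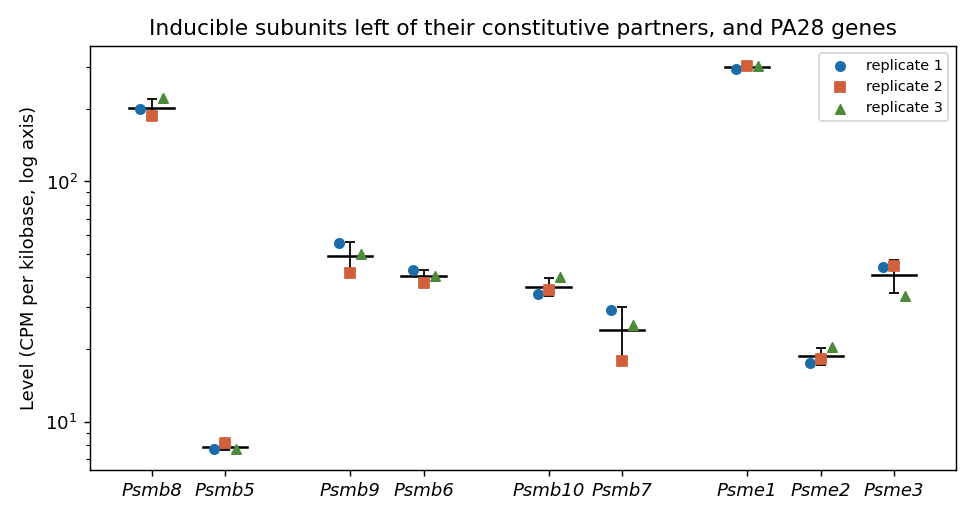
Level in CPM per kilobase (log axis) of each inducible catalytic gene, left, beside its constitutive partner, and of Psme1 and Psme2 left of Psme3; points are the 3 libraries, thick bars the mean and error bars the SD. Psmb8 and Psmb5 are separated by 25.9-fold in the fit, while Psmb9 and Psmb6 overlap.

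The 250 bases before the RefSeq start of the inducible genes and of Psmb5 are shown because they include Psmb8 and Psmb5, the pair that differed most of the 5 compared. Capitals mark matches to the gamma-activated sequence TTCNNNGAA in Psmb8 and to the antioxidant element core TGACNNNGC in Psmb5, found on either strand. Coordinates are GRCm38.p6, and each line reads 5′ to 3′ toward the gene. Psmb8 is from chr17:34197945-34198194 on the plus strand, Psmb9 from chr17:34187331-34187580 on the minus strand, Psmb10 from chr8:105938393-105938642 on the minus strand and Psmb5 from chr14:54617996-54618245 on the minus strand.
Psmb8: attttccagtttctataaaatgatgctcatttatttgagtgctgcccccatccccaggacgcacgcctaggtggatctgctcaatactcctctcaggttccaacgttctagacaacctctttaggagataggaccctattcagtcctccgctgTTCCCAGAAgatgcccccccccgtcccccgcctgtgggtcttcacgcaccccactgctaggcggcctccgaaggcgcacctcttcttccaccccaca
Psmb9: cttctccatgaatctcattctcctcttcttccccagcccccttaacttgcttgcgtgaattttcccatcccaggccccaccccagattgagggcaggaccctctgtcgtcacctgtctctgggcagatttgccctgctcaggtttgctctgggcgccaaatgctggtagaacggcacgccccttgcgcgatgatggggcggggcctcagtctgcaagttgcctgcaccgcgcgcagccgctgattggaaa
Psmb10: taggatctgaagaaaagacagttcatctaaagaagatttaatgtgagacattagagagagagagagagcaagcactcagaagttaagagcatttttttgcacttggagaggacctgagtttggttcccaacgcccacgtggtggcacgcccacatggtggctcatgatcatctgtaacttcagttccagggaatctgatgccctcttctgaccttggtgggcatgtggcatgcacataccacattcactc
Psmb5: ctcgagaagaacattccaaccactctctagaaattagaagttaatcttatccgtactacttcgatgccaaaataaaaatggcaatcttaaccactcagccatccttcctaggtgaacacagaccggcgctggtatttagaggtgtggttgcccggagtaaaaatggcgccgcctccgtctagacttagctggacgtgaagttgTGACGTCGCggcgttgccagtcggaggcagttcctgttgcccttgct

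The match in Psmb8 ended 88 bases before the start, and the match in Psmb5 ended 38 bases before it. Over all 32851 RefSeq promoter windows of the same length, 7.02% held TTCNNNGAA and 10.2% held TGACNNNGC. Psmb9 and Psmb10 held neither, nor the paired half-sites of the interferon-stimulated response element (GAAA, any 2 bases, GAAA), found in 2.98% of all windows. Windows were at hand for 39 of the 48 genes. TTCNNNGAA stood in 2 of them (Psmb8 and Psmg1), the paired half-sites in 3 (Psmb3, Psmd4 and Psmd9) and TGACNNNGC in 5 (Psmb5, Psmb6, Psmc6, Psmd12 and Psmd9). The window of Psmb6 ended inside the gene's span given above, and its match lay at that end. The GC box GGGCGG, on either strand, was in 22 of 39 (56.4%), against 32.7% of all windows, and CCAAT was in 13 (33.3%), against 33.8%. A gene with several windows counted if any of them held the motif, whereas the shares of all windows are of single windows. These are matches of letters, and binding was not measured.

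Psme1 had the highest level of all 48 genes. Psme1 encodes one chain of the PA28 ring that opens the core particle, and lies on chromosome 14 at 55578494 to 55581527. It had 294.7, 302.5 and 303.1 CPM per kilobase (300.1 ± 4.71), which was 56.5-fold the median gene (edgeR adjusted p = 1.47e-11). Psme2, the other chain of that ring, on chromosome 14 at 55587440 to 55591101, had 17.6, 18.2 and 20.5 CPM per kilobase (18.8 ± 1.504). Psme3, the nuclear PA28 protein that forms a ring of its own, had 44.1, 44.5 and 33.5 CPM per kilobase (40.7 ± 6.24). The order Psme1, Psme3, Psme2 held in every library.

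Set against Psme3, Psme1 was higher by 2.91 on the log2 scale (2.48 to 3.34; edgeR adjusted p = 6.73e-38), and 5.6% of all genes lay above Psme3. The spread in this fit was in effect shared over all genes, not read from Psme1 alone. With a library left out the edgeR adjusted p of Psme1 ran up to 4.58e-10. Psme2 was lower than Psme3 by the same test, with a log2 difference of -1.08 (-1.71 to -0.45; adjusted p = 0.00136), as were 82.4% of all genes. That call was lost without replicate 2 (-0.98, adjusted p = 0.0515). It was also lost when the length of Psme2 was scaled to the part of its transcript found in no other gene (-0.030, adjusted p = 0.923), an alternative chosen after seeing the data. Psme4, the nuclear activator PA200, had 19.1, 24.8 and 26.5 CPM per kilobase. Psmf1, the inhibitor-like protein PI31, was lowest of the 5 regulators at 10.8, 7.89 and 7.93 CPM per kilobase. Both lay above the median gene, Psmf1 by 1.67-fold (edgeR adjusted p = 0.00333).

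The 7 alpha subunits form the outer rings that gate the core particle, so each is needed once per ring. Their mean levels ran from 6.76 to 83.6 CPM per kilobase, a 12.4-fold range, with a median of 43.3. Psma7 was highest at 95.4, 59.8 and 95.6 CPM per kilobase. Psma5 was lowest at 8.81, 3.58 and 7.90 CPM per kilobase, with replicate 2 far below the others. Psma3 was next lowest at 10.6, 9.003 and 14.8 CPM per kilobase. Psma5 and Psma3 have near-identical copies elsewhere in the genome, described below, so the low end of the range is uncertain. Without these genes the means ran from 32.4 (Psma1) to 83.6 CPM per kilobase. All 7 were lowest in replicate 2.

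Among the beta subunits without an active site of their own, Psmb1 had 91.5, 74.0 and 101 CPM per kilobase and Psmb4 had 56.2, 36.9 and 53.3. Psmb2 had 37.6, 23.3 and 29.9 CPM per kilobase. Psmb3 was lowest at 18.4, 10.9 and 13.7. All 4 were above the median gene, and all 4 were again lowest in replicate 2.

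The 6 ATPases, which form the ring that unfolds substrates and threads them into the core, had the narrowest range of all classes, with means from 29.6 to 65.9 CPM per kilobase, a 2.22-fold range. Psmc3 was highest at 71.0, 56.6 and 70.2 CPM per kilobase. Psmc6 had 44.6, 36.2 and 55.8, Psmc1 had 36.8, 35.9 and 40.3, and Psmc4 had 38.8, 34.8 and 34.0. The others overlapped with these, Psmc5 at 28.6, 34.5 and 36.0 and Psmc2 at 36.3, 26.2 and 26.5 CPM per kilobase. All 6 exceeded the median gene.

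The other 11 subunits of the regulatory particle, all above the median gene, had a median of 34.1 CPM per kilobase. Psmd4, a receptor for ubiquitin chains, stood apart at 138, 107 and 126 CPM per kilobase, 23.3-fold the median gene (edgeR adjusted p = 2.29e-10). The lowest was Psmd11, a scaffold of the lid, at 26.1, 24.5 and 26.5 CPM per kilobase. Psmd11 also has a near-identical copy, and 77.5% of its 75-base windows were found in no other gene. With lengths scaled to such windows, as described below, its mean was 33.1 CPM per kilobase, above Psmd12 at 27.6, so its rank is uncertain. Psmd14, the deubiquitinase that releases ubiquitin from substrates, averaged 38.8 ± 4.55. Psmd2, the large scaffold of the base, averaged 34.1 ± 4.37 CPM per kilobase.

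The 3 chaperones of the regulatory particle stood low among the 48 genes, at ranks 35 to 47 per kilobase. Psmd5, a chaperone of the ATPase ring, had 18.2, 20.1 and 23.4 CPM per kilobase. Psmd10, also called gankyrin, had 12.1, 7.20 and 11.8. Psmd9, another chaperone of the base, had 7.38, 3.58 and 4.65 CPM per kilobase and was not separated from the median gene (log2 difference -0.032, -0.60 to 0.54, edgeR adjusted p = 0.909). The medians were 10.4 for the 3 regulatory particle chaperones and 36.8 for the 6 ATPases.

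Psmg1 and Psmg2 encode a dimer on which the alpha ring assembles, and Psmg3 and Psmg4 encode a second dimer. Psmg4 was highest at 26.6, 28.2 and 32.6 CPM per kilobase. Its partner Psmg3 had 7.89, 7.14 and 7.01 CPM per kilobase and was not separated from the median gene (log2 difference 0.47, -0.20 to 1.13, edgeR adjusted p = 0.165). Psmg2 had 17.3, 11.9 and 20.1, and Psmg1 had 14.4, 14.99 and 9.61 CPM per kilobase. In the Psmg1 and Psmg2 pair the order was not the same in every library, since Psmg1 was the higher in replicate 2.

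Both remaining matches fall outside the somatic particle. Psma8, the alpha subunit of the testis, had 14, 2 and 10 reads, or 0.869, 0.0843 and 0.451 CPM per kilobase. As a yardstick for unexpressed genes, the mean over 578 olfactory receptor genes was 0.248, 0.0208 and 0.0497 CPM per kilobase. Psma8 was above that average in every library and not separated from 1 CPM (edgeR adjusted p = 0.854). Psmc3ip, whose symbol means an interactor of Psmc3, encodes a meiotic recombination factor and no subunit. It had 8.43, 4.18 and 4.32 CPM per kilobase, close to the median gene (adjusted p = 0.836).

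Several of the low genes have near-identical copies elsewhere in the genome. The transcripts were cut into 75-base windows, and the share of windows found in no other annotated gene was computed from GENCODE M21. It was under 70% for 5 of the 46 proteasome genes, a threshold set after seeing the values. Psma3 had 22.2% unique windows, with a pseudogene identical over 685 bases. The other shares were 48.3% for Psme2, 60.2% for Psma5, 64.2% for Psmb5 and 66.9% for Psmb3. Their median level was 11.5 CPM per kilobase, against 35.9 for the other 41 genes. None of the copies found has its own row in the count table. The sources used here do not say how reads with several matches were counted or how long reads were, so the levels of these 5 genes are uncertain.

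The copy of Psmb5 bears on its comparison with Psmb8. The pseudogene Gm3375 on chromosome 7 matched 98.9% of 796 aligned bases of Psmb5, with 8 mismatches. A stretch of 60 coding bases, transcript positions 318 to 377 of Psmb5, is shown beside the pseudogene, because a read inside it could be placed by only 2 differences. Capitals mark these differences, C11T and C20T, Psmb5 first, with positions counted from 1 at the 5′ end of the stretch.
Psmb5: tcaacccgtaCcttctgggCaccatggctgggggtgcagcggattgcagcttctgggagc
Gm3375: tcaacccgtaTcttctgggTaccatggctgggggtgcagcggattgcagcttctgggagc

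With each length multiplied by the unique share, an alternative chosen after seeing the data, the mean of Psmb5 became 12.3 CPM per kilobase. Psma3 became 51.8, Psme2 38.8, Psmb3 21.4 and Psma5 11.2 CPM per kilobase. Psmb8 still exceeded Psmb5 by 4.05 on the log2 scale (edgeR adjusted p = 4.28e-09), and its share of the pair was 94.3%. This scaling holds only if no read from a shared window was counted, and if the share found in 1 transcript holds over the whole counted length. For Psma3 that transcript had 859 bases, against a counted length of 1434.

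**Figure D3:**
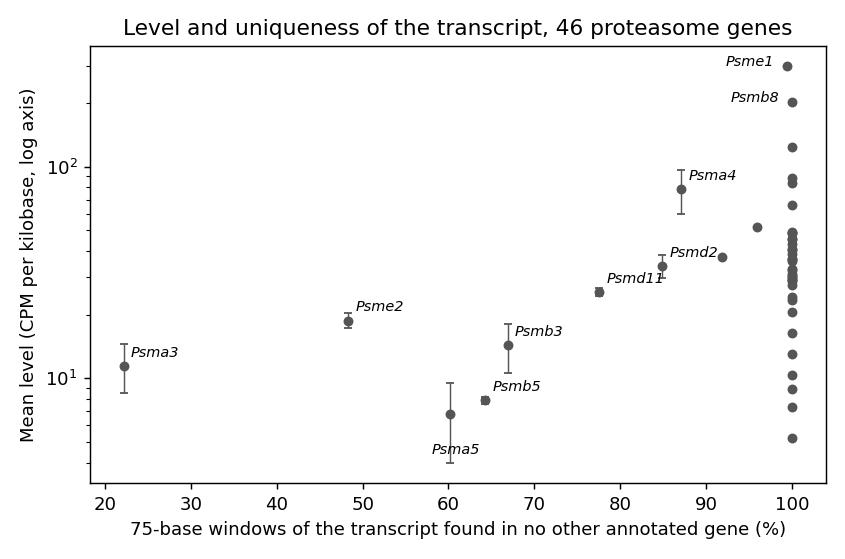
Mean level in CPM per kilobase (log axis) against the share of 75-base transcript windows found in no other annotated gene, 1 point per proteasome gene (46 genes); error bars, drawn for named genes under 90%, are SD over 3 libraries. The 5 genes under 70% unique lie at or below 18.8 CPM per kilobase, and Psmb8, whose windows are all unique, lies at 203.

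The spread between libraries was smaller for proteasome genes than for the typical gene. Their median SD of log2(CPM + 0.5) was 0.191, against 0.403 over all genes tested and 0.271 over the 8731 genes in the same range of CPM. The parts differed, with a median of 0.173 for the 17 regulatory particle genes and 0.326 for the 17 core particle genes. The core particle was thus less even than genes in the same range of CPM, though more even than all genes tested. The smallest SDs were those of Psme1 (0.0227), Psmd13 (0.0452), a lid subunit at 29.3, 30.7 and 31.2 CPM per kilobase, and Psmb5 (0.0460). Psmb5 had only 64, 100 and 88 reads, and counting error alone is larger than its SD, which therefore does not show evenness. Psma8 (0.814), Psma5 (0.660) and Psmc3ip (0.525) had the largest. Without replicate 2 the median SD was 0.109, against 0.191 with it, so that library moved it by more than 1.5 times. Among all genes tested, the median SD of the proteasome genes ranked at the 18.9th percentile, but at the 36.7th without replicate 1, and at the 29.3rd among genes in the same range of CPM.

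What spread there was had a common direction. Replicate 2 was the lowest library for 31 of the 46 genes (67.4%), against 43.2% of all genes tested and 28.3% of genes in the same range of CPM. It was lowest for 15 of 17 core particle genes and 12 of 17 regulatory particle genes. Among genes under 1 kb with a mean of at least 5 CPM, the median log2 ratio of replicate 2 to the mean of the others was -0.34 for 14 proteasome genes and -0.30 for 659 genes in all. From 1 to 2 kb it was -0.27 for 24 proteasome genes and -0.01 for 1943 genes. From 2 to 4 kb it was -0.05 for 7 proteasome genes and 0.14 for 3938 genes. Replicate 2 also had the most CD8 T and NK markers and the fewest erythroid, macrophage, neutrophil and B cell markers of the 3 libraries. Neutrophil markers summed to 171, 67.8 and 696 CPM (6 genes) and B cell markers to 282, 111 and 164 CPM (6 genes) in replicates 1, 2 and 3. Monocyte markers summed to 653, 790 and 325 CPM (6 genes). Conventional dendritic cell markers summed to 67.8, 72.3 and 40.85 CPM (6 genes), and both lists were highest in replicate 2. Mitochondrial ribosomal RNA took 17.8%, 6.22% and 13.1% of counts, the same order as the share of counts held by the 48 genes. The part of these differences in the lower proteasome levels was not tested.

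**Figure D4:**
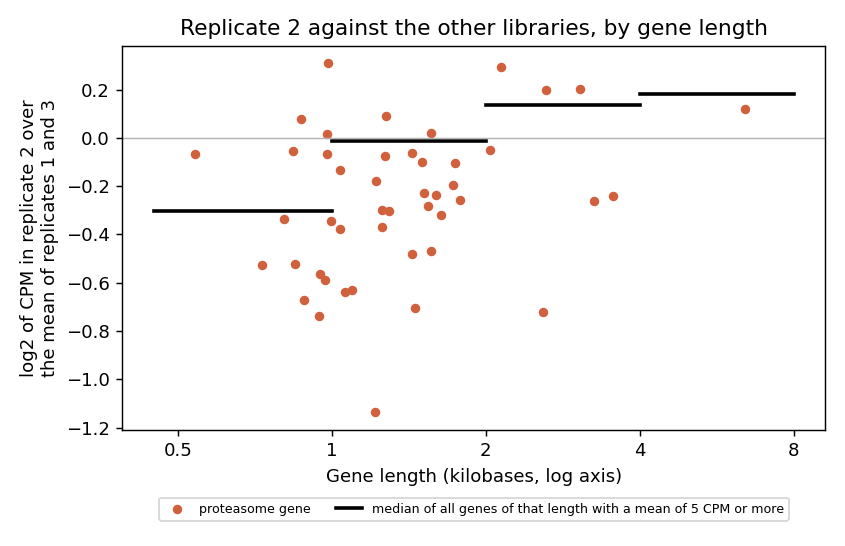
Log2 ratio of CPM in replicate 2 to the mean of replicates 1 and 3 against gene length in kilobases (log axis) for 46 proteasome genes (points), with the median over all genes of each length class (bars; the end bars stand for all genes under 1 kb and from 4 kb up). Under 1 kb the median was -0.34 for proteasome genes and -0.30 for all genes, and from 1 to 2 kb it was -0.27 for proteasome genes and -0.01 for all genes.

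Genes that work with the proteasome were set beside it. Of 27 listed genes of ubiquitin handling, proteasome assembly and proteasome control, 26 were measured and 25 lay above the median gene, against 43.7% of all genes tested. The list was chosen with earlier results of these data known, so the count is a description and no independent test. Ubb, a polyubiquitin gene, averaged 176 CPM per kilobase and Sem1, the smallest lid subunit, averaged 159. Pomp, the chaperone that matures the core particle, had 72.7, 54.8 and 70 CPM per kilobase, and was lowest in replicate 2, as were most core subunits. Nfe2l1, the transcription factor that induces proteasome genes when the proteasome is inhibited, had 18.4, 19.6 and 20.2 CPM per kilobase. The lowest were Zfand5, a zinc-finger protein that activates the proteasome, at a mean of 8.02, and Adrm1, a ubiquitin receptor, at 4.78, 10.1 and 8.44 CPM per kilobase. Adrm1 was the gene not separated from the median gene (edgeR adjusted p = 0.0755), and 27.5% of its windows were unique.

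All 21 listed genes of MHC class I presentation and interferon response were above the median gene, against 43.7% of all genes tested, with a median of 73.2 CPM per kilobase. This list too was chosen with earlier results of these data known, so its count is a description only. B2m, the light chain of class I, averaged 1209 and H2-K1, a heavy chain, averaged 1021. Tap1 and Tap2, the peptide transporter genes that lie beside Psmb9 and Psmb8, had 62.5, 81.6 and 75.5 and 40.4, 61.4 and 56.2 CPM per kilobase. Both were lowest in replicate 1 and highest in replicate 2, whereas Psmb8 and Psmb9 were lowest in replicate 2. All genes of 2 to 4 kb, the class of Tap1 and Tap2, had median log2 ratios to the other libraries of -0.22 in replicate 1 and 0.14 in replicate 2. In replicate 2 the median was -0.30 under 1 kb, the class of Psmb9, and -0.01 from 1 to 2 kb, the class of Psmb8. The part of gene length in this contrast was not tested. The lowest of the list were Stat2, a mediator of interferon signals, at 16.9, and Tapbpl, an editor of class I peptides, at 21.3 CPM per kilobase.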

How the data were processed

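RNA was sequenced from 3 sorted samples of 1 group. The authors deposited whole-number read counts per gene for 17857 genes, each with its Entrez number and length in bases. The submitters' processing notes name bcl2fastq, STAR 2.75, featureCounts and DESeq2 1.18.1 with build mm10, without roles. The sources used here do not give the annotation, strand setting, read length or treatment of multiply matching reads, so overlapping and antisense genes may share reads. Per the labels' protocols, a stranded kit was used on 8 ng of total RNA, so nascent RNA may be included, which was not measured here.

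CPM used TMM factors from edgeR 4.0.16 in R 4.3.3. Genes with at least 10 counts in all were tested (15490). edgeR's quasi-likelihood test set each gene against 1 CPM, against the median gene per kilobase, or against a partner gene, through offsets in an intercept-only model. Since glmQLFTest takes no such design, its F statistic was formed from the fitted deviances. The partner's own counting error is not in the interval of a pair. In the fits against Psmb7 and Psme3 the spread was in effect shared over all genes. Tests were two-sided and Benjamini-Hochberg adjustment ran over all genes tested. The test was tried on simulated counts first. DESeq2 1.42.0 and limma 3.58.1 were alternatives, with no filter, another filter, other scaling, no length scaling and each library left out.

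Copies were searched with blastn 2.17.0 in GENCODE M21 transcripts. Promoters and gene positions came from RefSeq GRCm38.p6. The genes and lists were chosen with earlier results of these data known. Named are the highest and lowest gene of each class, all of classes of up to 6, the 3 with the largest and the 3 with the smallest SD, and fixed or extreme genes of 2 lists. Genes named for their near copies, and Psmd2 and Psmd14, were added after their values were seen. Psmb11 and Psme2b had no row under these symbols in the count table, so they were not analysed here.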

Additional observations from a re-analysis of the deposited data

How the results depend on the processing

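The 46 proteasome genes above 1 CPM and the 42 above the median gene were 46 and 42 with each library left out. The 42 above and 0 below by edgeR (0 also at an unadjusted p under 0.05, by DESeq2 and by limma) became 37 and 1 with the stricter filter, without length scaling and against 2 times the median gene, and 46 and 0 with no filter. Psmb8 exceeded Psmb5, and Psme1 exceeded Psme3, under all 10 alternatives, at 4.05 to 5.18 and 1.49 to 2.99 on the log2 scale. With 1 library left out, Psmb10 against Psmb7 ran from 0.46 to 0.83, Psme2 against Psme3 from -1.31 to -0.97 and Psmb9 against Psmb6 from 0.23 to 0.34. Without length scaling Psmb9 against Psmb6 turned to -0.086 (adjusted p = 0.674), Psmb10 against Psmb7 was called at 1.04, and the shares were 97.3% for Psmb8 and 48.5% for Psmb9, and Psmb3 (-0.20), Psma5 (-0.55), Psmb5 (-0.80) and Psmg3 (-0.96) had values below the median gene. Psmb10 against Psmb7 was also called by DESeq2 (0.65) and limma (0.63). Scaled to unique windows, Psme2 against Psme3 was -0.030 and the share of Psmb8 94.3%. With a stricter filter, which raises the median gene, Psmd9 was called below it (-1.06, adjusted p = 0.0200), Psma5 (-0.68), Psmg3 (-0.57), Psmb5 (-0.48), Psmf1 (-0.30) and Psmd10 (-0.069) had values below it, and Psma3, Psmb3 and Psmg1 were no longer called above. Psmd9 was above it with no filter (0.58) and without length scaling (0.16), and ran from -0.45 to 0.18 with a library left out, against -0.032 with all 3. The causes of the other changes were not tested. The genes of the whole table below the median gene numbered 2964, but 4683 without replicate 1, 917 without replicate 3, 6078 by DESeq2, 6637 by limma and 6207 against 2 times the median gene. Psmb5, with 64 to 100 reads, was the least precisely read of the catalytic genes. The spread had a median SD of 0.109 to 0.208, at the 18.1st to 36.7th percentile, with a library left out. Replicate 2 was lowest for 31 of 46 genes, 29 with RLE factors and 30 with totals alone. No paired analysis was possible because there is 1 group.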
